A study of Homo sapiens with 6 samples.

Results

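The genes described here encode the basement membrane, the thin sheet of extracellular matrix on which epithelial cells sit, and matrix proteins associated with it. They comprised 34 of the 22503 genes in the deposited count table, and were chosen by gene family (laminin chains, basement membrane collagens, linker proteins, associated matrix proteins and lysyl oxidases) with DHA against DMSO values of these same libraries already known. All values of DHA against DMSO below are therefore a description of the members and no independent evidence about them. Transcript levels had been measured in CAL-27 cells, an established epithelial line derived from a tongue squamous carcinoma, after 48 h with DHA (3 libraries) or with its solvent DMSO (3 libraries). DHA was taken to be dihydroartemisinin, since the series concerns artemisinin derivatives, and no label states its dose. Every library came from this single cell line, and nothing in the labels says that libraries of a group came from separate cultures, so the spread between them may be technical.

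A basement membrane is built from a laminin network and a collagen IV network. Each laminin is a trimer of an alpha, a beta and a gamma chain. Laminin-332, to which the alpha3 (LAMA3) and beta3 (LAMB3) chains belong, is the laminin of keratinocytes, where it binds the hemidesmosome and anchoring fibrils. Laminin-511 is made of the alpha5 (LAMA5), beta1 (LAMB1) and gamma1 (LAMC1) chains and is found in most epithelial basement membranes. Collagen IV is also a trimer, most often of alpha1 (COL4A1) and alpha2 (COL4A2) chains, and nidogens and the proteoglycan perlecan (HSPG2) tie the networks together.

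The stretches below show how the genes whose values are compared next begin in the reference genome (RefSeq, GRCh38.p14), written 5′ to 3′ on the strand stated. COL4A1 and COL4A2 lie head to head on chromosome 13 at 110148963 to 110307157 (minus strand) and 110307284 to 110513209 (plus strand), with 126 bases, of which 80.2% are G or C, between their starts. The next lines give, on the plus strand, the surroundings of the CCAAT box (chr13:110307167-110307195) and of the GC box (chr13:110307208-110307236) in this shared segment, each in capitals. GENCODE 29 annotates exon bases across both sites.
COL4A1-COL4A2 CCAAT box: gggccgagctccCCAATttgttggcgctg
COL4A1-COL4A2 GC box: cggcggtgcgcGGGCGGcgcctcaaaggg

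For the laminin chains, capitals mark the motif of the transcription factor AP-1 (TGAGTCA or its reverse complement TGACTCA) and the GC box (GGGCGG or CCGCCC). LAMA3, on chromosome 18 at 23689453 to 23955066, has 2 AP-1 matches before one of its starts, beginning 125 and 69 bases upstream (chr18:23872884-23872912 and chr18:23872940-23872968, plus strand), where GENCODE 29 annotates exon bases. LAMB3, on chromosome 1 at 209614870 to 209652425, has a match 67 bases upstream of one of its starts (chr1:209651395-209651524, minus strand). LAMA5, on chromosome 20 at 62309065 to 62367312 (chr20:62367313-62367462, minus strand), and LAMC1, on chromosome 1 at 183023420 to 183145592 (chr1:183023270-183023419, plus strand), are shown beside them. LAMC1 and LAMA3 also have a GC box within the windows described below, but not within the bases printed here.
LAMA3 distal: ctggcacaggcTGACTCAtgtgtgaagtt
LAMA3 proximal: ccttcctcaccTGAGTCAggcaggcccgg
LAMB3: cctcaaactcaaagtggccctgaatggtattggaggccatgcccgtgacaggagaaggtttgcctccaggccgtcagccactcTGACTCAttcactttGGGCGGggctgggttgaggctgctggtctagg
LAMA5: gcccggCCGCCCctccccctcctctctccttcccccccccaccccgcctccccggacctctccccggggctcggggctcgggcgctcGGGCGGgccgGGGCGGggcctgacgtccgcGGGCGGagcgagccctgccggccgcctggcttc
LAMC1: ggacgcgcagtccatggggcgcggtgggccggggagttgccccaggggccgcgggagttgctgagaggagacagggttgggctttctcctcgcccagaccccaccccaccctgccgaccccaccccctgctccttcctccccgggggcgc

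RefSeq promoter windows, from 250 bases before to 50 bases after a start, were at hand for 28 of the 34 genes, 33 windows in all. The AP-1 letters, searched on both strands, occurred in 2 of these windows (6.06%), those of LAMA3 and LAMB3, against 4.95% of all 35116 windows. The GC box occurred in 24 of the 33 (72.7%), against 45.0% of all windows, CCAAT or its complement in 8 (24.2%), against 34.6%, and TATAAA or its complement in 4 (12.1%), against 11.5%. These motifs were picked after the values below had been seen, and a match describes letters, not a binding site.

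The libraries held 35980670 to 38120267 counts over genes, and 3 counts corresponded to 0.0788 to 0.0830 CPM (counts per 1e6 counts) after TMM scaling. One library stood apart. DMSO 1 was the highest of the DMSO libraries in 26 of the 28 members that passed the filter on low counts, all but EFEMP1 and LAMA2, while it was the highest in 42.7% of all genes tested. All 13 keratinocyte markers passed the filter, with a summed level of 6142 to 8049 CPM in DMSO and 4709.96 to 5446 CPM in DHA. Of these 13, 9 had a negative log2 fold change, and 1, the keratin KRT6A, was called, as higher (log2 fold change 0.75, adjusted p = 0.0402 in edgeR). DESeq2 called 1 of the 13 higher and 2 lower. The most negative log2 fold changes were those of KRT17 (-1.15) and DSP (-0.70), neither called in edgeR. DMSO 1 was far above DMSO 2 and DMSO 3 in both. KRT17 was at 2546, 1122 and 1105 CPM in DMSO 1 to 3 and 858, 785 and 506 CPM in DHA 1 to 3. DSP was at 759, 474 and 465 CPM in DMSO and 372, 270 and 401 CPM in DHA. Of 9 fibroblast markers listed, 8 had a row in the count table. Of these 8, 6 had a mean under 1 CPM (sum 13.6 to 23.4 CPM in DMSO, 9.17 to 13.2 in DHA, mostly COL1A1). Of 7 endothelial markers 6 had a row, 4 of them under 1 CPM (28.9 to 40.1 and 25.5 to 27.3 CPM, mostly CDH5 and EGFL7). Of 6 immune markers 4 had a row, 2 of them under 1 CPM (44.0 to 46.5 and 34.7 to 47.3 CPM, mostly CD68). Without a row were THY1 (fibroblast), KDR (endothelial), and PTPRC and CD3E (immune). Every gene in the count table had counts in some library, so a marker without counts in all 6 could not appear there. The reason these markers lacked a row was not tested. Of the fibroblast markers DCN, PDGFRA and FAP were at 0 in 3, 5 and 3 libraries, while COL1A1, COL1A2, COL3A1, LUM and PDGFRB had counts in all 6. The 4 fibroblast markers that passed the filter all had negative log2 fold changes (median -0.94), 3 with an unadjusted p under 0.05 in edgeR and 0 called by edgeR or limma-voom, while DESeq2 called 1. These signs were those of most members, with PDGFRB at only -0.04. Negative too were the 3 endothelial (median -0.43) and 2 immune markers (median -0.71) that passed the filter, and 9 of the 13 keratinocyte markers. Over all genes tested, 7277 of 14649 had a negative log2 fold change and 20.3% an unadjusted p under 0.05 in edgeR. Called lower were 1.60% in edgeR and 4.66% in DESeq2. With 2 to 4 genes in a list, a shared sign says little. PECAM1 of endothelium was at 0 in 2 libraries and LYZ of immune cells in 4. Among the immune markers CD14 was called lower (log2 fold change -1.36, adjusted p = 0.0240 in edgeR). The part of DMSO 1 and of these markers in the results was not tested beyond the values given here.

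Of the 34 members, 28 passed the filter and entered the fit. The quasi-likelihood test of edgeR, Benjamini-Hochberg adjusted across all 14649 genes tested, put 12 of the 28 past the threshold of 0.05, each lower in DHA. The background was 2.70% of all genes tested past the threshold, 1.60% lower and 1.10% higher. No member passed as higher in edgeR, DESeq2 or limma-voom, and 1, LAMA2, was higher at an unadjusted p under 0.05 in each tool. The DHA libraries lay wholly below the DMSO libraries in 21 of the 28 members and wholly above in 0, against 13.5% and 14.3% of all genes tested. The median log2 fold change of the 28 was -0.61, and that of all genes tested was 0.00. These counts come from the contrast that was known when the family was picked and are read no further. RNA came from whole cultures, so fewer cells of a type and less RNA per cell cannot be told apart.

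The calls depended on single libraries. With DMSO 1, DMSO 2 or DMSO 3 left out, the 12 members past the threshold became 4, 1 and 6, and with DHA 1, DHA 2 or DHA 3 left out they became 1, 4 and 13. Over all genes the 395 calls became 178, 46, 168, 16, 189 and 789 in the same order. LOXL4 and ABI3BP passed in 5 of these 6 fits, SPARC in 4, EFEMP1 in 3, LAMA5 and MATN2 in 2, and LAMB1, COL4A1, COL4A2, COL4A5, NTN4 and MXRA5 in 1 each. Without DMSO 1 the 4 that passed were LOXL4, ABI3BP, SPARC and EFEMP1. At the edge of the threshold, COL4A5 had an adjusted p of 0.0496 and COL18A1 one of 0.0521 in edgeR.

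**Figure D1:**
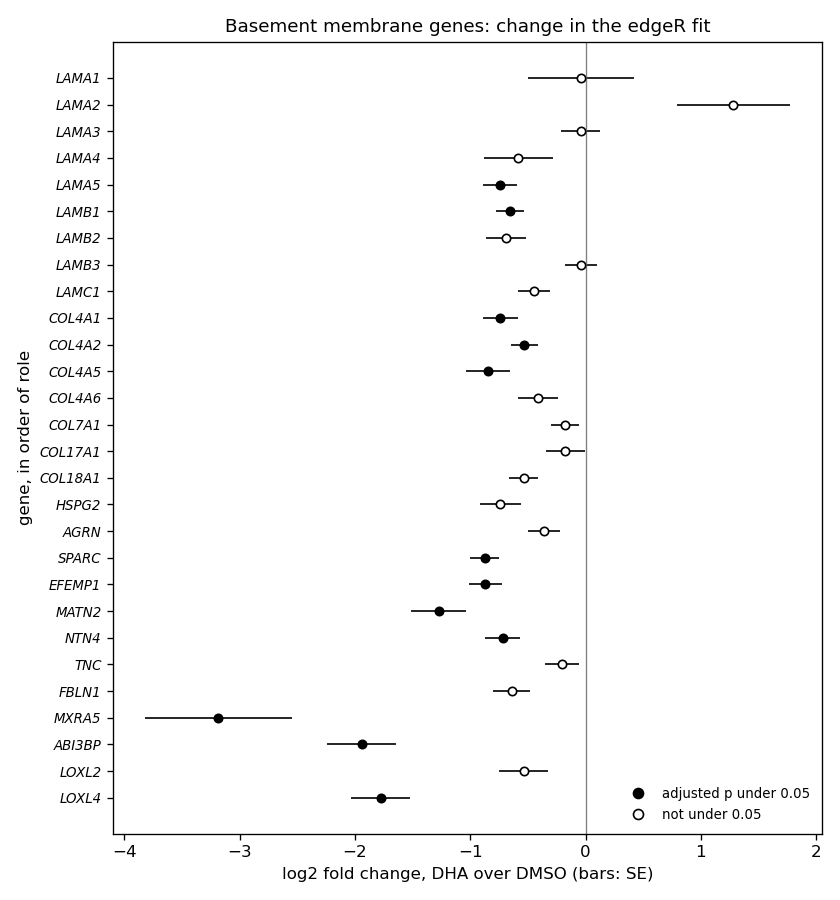
Log2 fold change of DHA over DMSO (x axis, bars are SE of the edgeR fit, 3 libraries a group) for the 28 members tested, in order of role on the y axis; filled points passed an adjusted p of 0.05. LAMA3 and LAMB3 sit at -0.04, COL7A1 and COL17A1 at -0.18, and the 12 filled points range from -0.53 (COL4A2) to -3.18 (MXRA5).

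The laminin-332 chains overlapped between treatments. LAMB3 was at 1539, 1431 and 1264 CPM in DMSO 1 to 3 and at 1457, 1462 and 1204 CPM in DHA 1 to 3. LAMA3 had 152, 115 and 112 CPM in DMSO against 127, 102 and 139 CPM in DHA. Values for both genes intermixed, with log2 fold changes of -0.04 ± 0.14 (SE) for LAMB3 and -0.04 ± 0.17 for LAMA3, and neither was called by edgeR, DESeq2 or limma-voom or had an unadjusted p under 0.05 in any of them. Their sign turned positive without DMSO 1 (0.03 for LAMB3 and 0.11 for LAMA3), so no direction can be given.

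The laminin-511 chains were lower in DHA, and LAMA5 and LAMB1 passed the threshold. LAMA5, which encodes the alpha chain, had 495, 409 and 361 CPM in DMSO and 257, 227 and 274 CPM in DHA, with a log2 fold change of -0.74 ± 0.15 (SE). LAMB1, the beta chain on chromosome 7 at 107923799 to 108003161, had 199.7, 178 and 188 CPM in DMSO and 117, 110.0 and 132 CPM in DHA, with a log2 fold change of -0.66 ± 0.12. In both genes all DHA libraries lay below all DMSO libraries. LAMC1, the gamma chain, had 367, 312 and 329 CPM in DMSO and 236, 220.2 and 283 CPM in DHA (log2 fold change -0.45 ± 0.14), again with no overlap. It did not pass with 6 libraries (adjusted p = 0.120 in edgeR). With a library left out it passed only without DHA 3 (adjusted p = 0.0453), and its highest adjusted p was 0.357, without DHA 1. Without DMSO 1 the adjusted p was 0.0742 for LAMA5, 0.0636 for LAMB1 and 0.216 for LAMC1, with log2 fold changes of -0.61, -0.62 and -0.38.

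Of the other laminin chains, LAMB2 (beta2, which can take the place of beta1) had 80.2, 60.5 and 55.1 CPM in DMSO and 42.8, 43.9 and 34.6 CPM in DHA. Its groups did not overlap, and its log2 fold change of -0.69 ± 0.17 missed the threshold in edgeR (adjusted p = 0.0702) and passed in DESeq2 (0.00925). LAMA4, LAMA1 and LAMA2, the alpha chains known from vessels, embryo and muscle, were near 1 CPM or below. LAMA4 averaged 1.23 ± 0.111 CPM (DMSO) and 0.822 ± 0.0815 CPM (DHA; SD, n = 3), LAMA1 at 0.574 ± 0.333 and 0.558 ± 0.0840 CPM, and LAMA2 at 0.339 ± 0.171 and 0.832 ± 0.326 CPM. LAMA2 was the member with a positive log2 fold change (1.28 ± 0.49), but its groups overlapped, with DHA 3 at 0.486 CPM below DMSO 3 at 0.526 CPM. LAMC3 (gamma3) had 0 to 4 counts per library and was not tested.

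**Figure D2:**
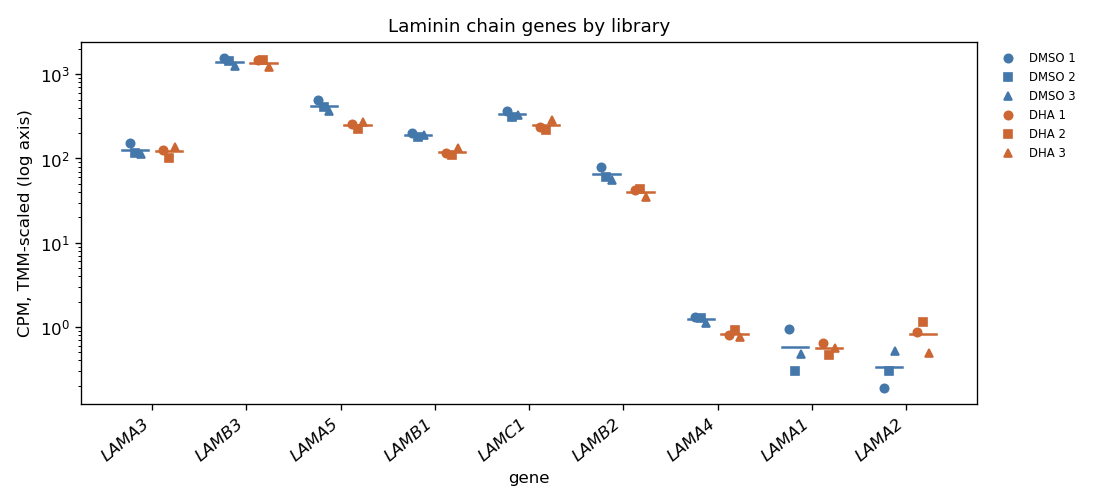
CPM after TMM scaling (y axis, log scale) of the 9 laminin chain genes tested (x axis); each point is a library, its shape the replicate number, its colour the treatment, and lines are group means of 3. The points of LAMA3 and LAMB3 intermix, while those of LAMA5, LAMB1, LAMC1, LAMB2 and LAMA4 separate by treatment.

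Ratios between genes within a library do not depend on how libraries are scaled, and they were formed from mean log2 CPM without length correction, so that only their change between libraries is read. The ratio of laminin-332 (mean of LAMA3 and LAMB3) to laminin-511 (mean of LAMA5, LAMB1 and LAMC1) was 0.55, 0.52 and 0.42 on the log2 scale in DMSO 1 to 3 and 1.16, 1.13 and 0.91 in DHA 1 to 3. All DHA libraries lay above all DMSO libraries, with group means of 0.49 ± 0.0693 and 1.07 ± 0.137 (SD, n = 3), a difference of 0.58 or 1.49-fold. The ratio of laminin-332 to collagen IV (mean of COL4A1 and COL4A2) was 1.09, 0.97 and 0.89 in DMSO and 1.64, 1.65 and 1.46 in DHA, a difference of 0.60 or 1.52-fold. Without DMSO 1 these differences were 0.60 and 0.66. No p is given, because the members were chosen with the contrast known.

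In contrast to these shifts, the ratio of laminin-511 to collagen IV differed by 0.03 between the group means, with overlapping values from 0.45 to 0.54 in DMSO and from 0.48 to 0.55 in DHA. Chain by chain, LAMA3 over LAMA5 was -1.70, -1.83 and -1.69 in DMSO and -1.01, -1.15 and -0.99 in DHA, a difference of 0.69. LAMB3 over LAMB1 was 2.95, 3.004 and 2.75 in DMSO and 3.63, 3.73 and 3.19 in DHA, a difference of 0.62. The groups did not overlap in either. Within laminin-511 the chains did not shift evenly. LAMA5 over LAMC1 went from 0.32 ± 0.160 in DMSO to 0.04 ± 0.0831 in DHA and LAMB1 over LAMC1 from -0.83 ± 0.0402 to -1.04 ± 0.0581 (SD, n = 3), each with no overlap.

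**Figure D3:**
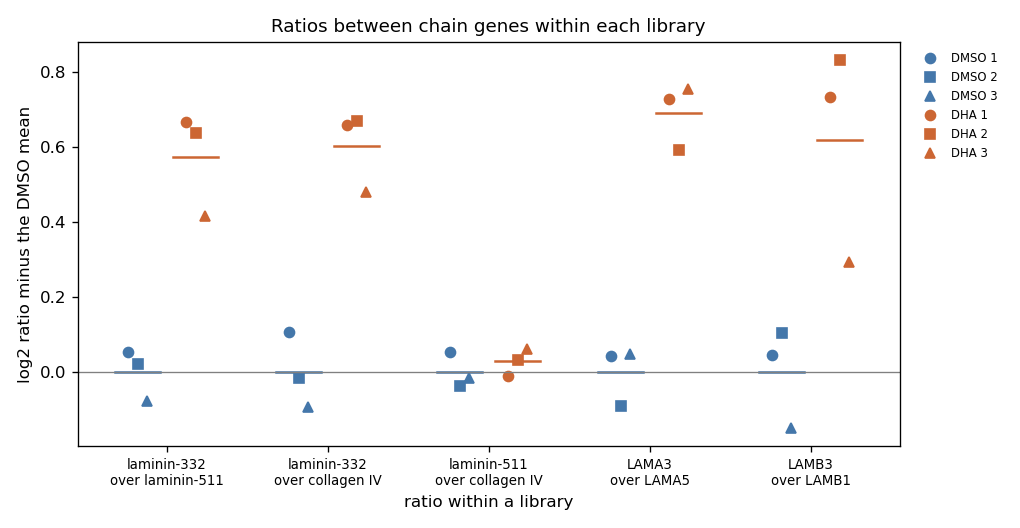
Log2 ratio within each library minus its DMSO mean (y axis) for 5 pairs of chain genes or chain averages (x axis); points are libraries, shaped by replicate number and coloured by treatment, and lines are group means of 3. DHA points lie above the DMSO points for both laminin-332 ratios, LAMA3 over LAMA5 and LAMB3 over LAMB1, and mix with them for laminin-511 over collagen IV.

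Of the 6 collagen IV genes 4 were tested, and COL4A1, COL4A2 and COL4A5 passed the threshold as lower in DHA. COL4A1 had 136, 124 and 125 CPM in DMSO and 75.7, 63.5 and 90.9 CPM in DHA (log2 fold change -0.74 ± 0.15, SE). Its head-to-head neighbour COL4A2 had 379.7, 348 and 329 CPM in DMSO and 252, 238 and 241 CPM in DHA (log2 fold change -0.53 ± 0.12). Neither gene's groups overlapped, and the ratio of COL4A2 to COL4A1 overlapped between treatments (log2 1.40 to 1.49 in DMSO, 1.41 to 1.91 in DHA). Each passed without DHA 3 and missed the threshold with any other library left out, up to an adjusted p of 0.154 for COL4A1 and 0.214 for COL4A2 without DHA 1 in edgeR. With unscaled library totals the calls of COL4A1 and COL4A5 were lost.

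COL4A5 and COL4A6 encode the alpha5 and alpha6 chains, which join in a collagen IV trimer of stratified epithelia, and are also arranged head to head, with 379 bases between starts on chromosome X. COL4A5 had 73.3, 57.3 and 52.8 CPM in DMSO and 33.8, 26.7 and 41.3 CPM in DHA (log2 fold change -0.85 ± 0.19, SE). COL4A6 had 20.2, 15.6 and 13.8 CPM in DMSO and 13.01, 11.6 and 12.6 CPM in DHA, with no overlap but a log2 fold change of -0.41 ± 0.17 that missed the threshold (adjusted p = 0.225 in edgeR). The log2 ratio of COL4A6 to COL4A5 was -1.89 ± 0.0396 in DMSO and -1.43 ± 0.259 in DHA (SD, n = 3), with no overlap. COL4A3 and COL4A4, the pair best known from the kidney glomerulus, had 0 to 5 counts per library and were not tested.

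Of the collagens outside the collagen IV network, none of the 3 tested passed in edgeR or limma-voom. COL17A1, a transmembrane collagen of the hemidesmosome, had 1318, 957 and 857 CPM in DMSO and 989.9, 857 and 927 CPM in DHA. COL7A1, which forms the anchoring fibrils that bind laminin-332, had 123, 113 and 103 CPM in DMSO and 105, 95.9 and 97.9 CPM in DHA. In both the groups overlapped, with log2 fold changes of -0.18 ± 0.17 and -0.18 ± 0.12, and for COL17A1 the value was 0.03 without DMSO 1. COL18A1, the source of endostatin, had 156, 155 and 142 CPM in DMSO against 104, 112 and 95.7 CPM in DHA. Its groups did not overlap (log2 fold change -0.54 ± 0.12), its unadjusted p was under 0.05 in each tool, and it passed in DESeq2 (adjusted p = 0.00368). COL15A1 had 0 to 2 counts per library.

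**Figure D4:**
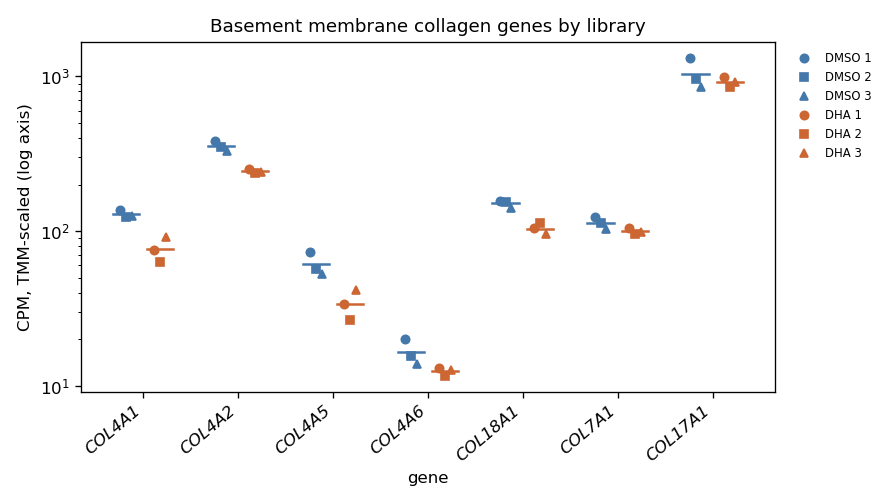
CPM after TMM scaling (y axis, log scale) of the 7 collagen genes tested (x axis); points are libraries, shaped by replicate number and coloured by treatment, and lines are group means of 3. COL4A1, COL4A2, COL4A5, COL4A6 and COL18A1 separate by treatment, while the points of COL7A1 and COL17A1 overlap.

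Linker genes were split between absence and high levels. The nidogen genes NID1 and NID2, whose products bridge laminin and collagen IV, were at or under the 3-count floor in every library, NID1 with 1 count in each DMSO library and 0 in each DHA library and NID2 with 0 to 2 counts. HSPG2 had 553, 420.2 and 356 CPM in DMSO and 249, 242 and 305 CPM in DHA, and AGRN, which encodes the proteoglycan agrin, 1032, 836 and 782 CPM against 714, 684 and 667 CPM. Groups overlapped in neither, and both had an unadjusted p under 0.05 in edgeR. Log2 fold changes were -0.74 ± 0.18 for HSPG2 and -0.36 ± 0.14 for AGRN, and neither passed in edgeR (adjusted p = 0.0630 and 0.190) or limma-voom, while HSPG2 passed in DESeq2 (0.00507). Without DMSO 1, the highest library in both, the log2 fold changes were -0.55 and -0.23 (adjusted p = 0.115 and 0.349 in edgeR). Without DHA 3 HSPG2 passed (adjusted p = 0.0395 in edgeR) and AGRN did not (0.174).

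Among the associated matrix proteins 6 of 8 passed as lower in DHA. SPARC, a collagen-binding protein involved in collagen IV handling, had 462, 426 and 439 CPM in DMSO and 247, 259.5 and 216 CPM in DHA (log2 fold change -0.88 ± 0.12, adjusted p = 0.0125 in edgeR). EFEMP1 (fibulin-3) had 138, 158 and 182 CPM in DMSO and 85.7, 79.8 and 96.1 CPM in DHA (log2 fold change -0.87 ± 0.14). In both, the lowest DMSO library was well above the highest DHA library, and in EFEMP1 DMSO 1 was the lowest of the DMSO libraries.

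MATN2 (matrilin-2, a filament-forming adaptor) had 45.01, 30.5 and 25.3 CPM in DMSO and 17.4, 12.3 and 11.9 CPM in DHA, a log2 fold change of -1.27 ± 0.24 that was -1.01 without DMSO 1. NTN4 (netrin-4, which binds laminin gamma chains) had 38.7, 37.5 and 34.7 CPM in DMSO and 22.4, 19.3 and 25.6 CPM in DHA (log2 fold change -0.72 ± 0.15). The largest log2 fold changes of the 28 members were those of MXRA5 and ABI3BP, both matrix genes of low level. ABI3BP had 8.67, 5.62 and 5.12 CPM in DMSO and 2.07, 1.16 and 1.81 CPM in DHA (log2 fold change -1.94 ± 0.30), and MXRA5 had 53, 22 and 19 counts in DMSO and 6, 2 and 2 counts in DHA (log2 fold change -3.18 ± 0.63). At such counts the fold change of MXRA5 is imprecise, and it was -2.57 with an adjusted p of 0.0840 in edgeR without DMSO 1.

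FBLN1 (fibulin-1) had 82.2, 71.6 and 65.7 CPM in DMSO and 50.1, 52.6 and 38.1 CPM in DHA, with no overlap and a log2 fold change of -0.64 ± 0.16 that passed in DESeq2 (adjusted p = 0.00992) but not in edgeR (0.0698). TNC (tenascin-C), a matrix glycoprotein of wounds and tumours, had 1329, 1176 and 1078 CPM with DMSO and 1019.9, 891 and 1199 CPM with DHA. Its groups overlapped and its log2 fold change of -0.20 ± 0.15 did not pass. The log2 ratio of TNC to SPARC within a library was 1.43 ± 0.118 in DMSO and 2.10 ± 0.351 in DHA (SD, n = 3), with no overlap.

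The lysyl oxidase-like enzymes crosslink collagens, LOXL2 among them collagen IV. LOXL4 had 19.4, 16.2 and 12.4 CPM in DMSO and 6.003, 4.78 and 3.18 CPM in DHA, a log2 fold change of -1.78 ± 0.26 (adjusted p = 0.0125 in edgeR) that passed in 5 of 6 fits with a library left out and had its highest adjusted p, 0.0503, without DMSO 2. LOXL2 had 690.4, 422 and 394 CPM in DMSO and 391, 345 and 303 CPM in DHA. DMSO 1 stood far above the rest, and the log2 fold change of LOXL2 was -0.54 ± 0.21 with all libraries and -0.24 without DMSO 1, past the threshold in neither.

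**Figure D5:**
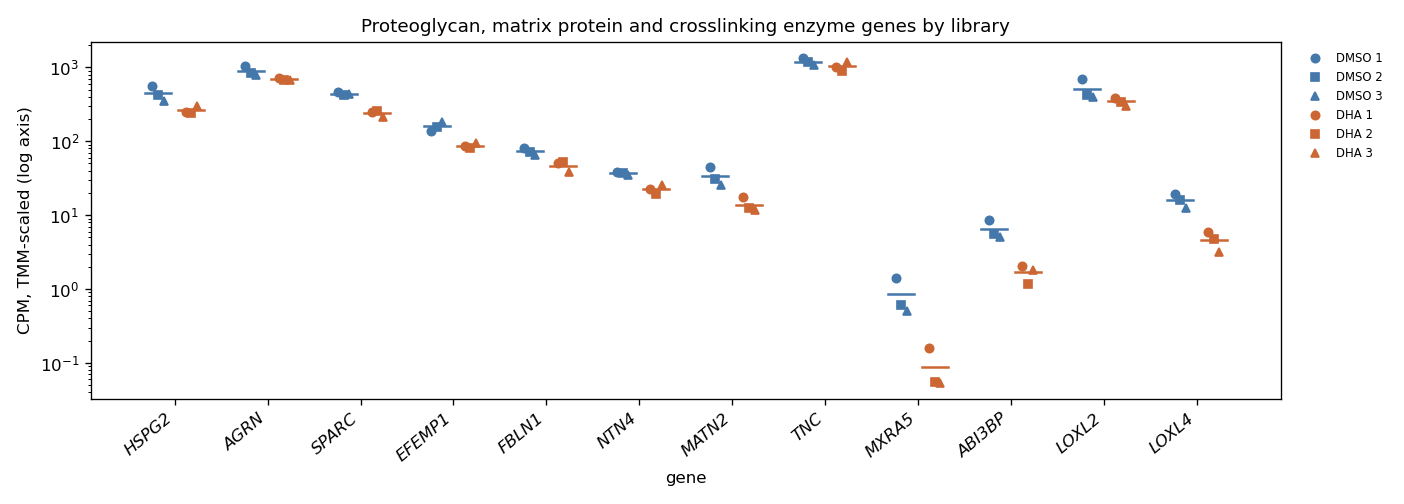
CPM after TMM scaling (y axis, log scale) of 12 proteoglycan, matrix protein and crosslinking enzyme genes (x axis); points are libraries, shaped by replicate number and coloured by treatment, and lines are group means of 3. TNC points overlap between treatments, those of the other 11 genes separate, and LOXL2 in DMSO 1 (690.4 CPM) lies above all other libraries.

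Levels can be compared between genes only per length, here as CPM per kilobase of all annotated exons (GENCODE 29). In DMSO the order began with LAMB3 at 301 ± 29.5 CPM per kb (SD, n = 3), above COL17A1 at 148 ± 34.3 and TNC at 124 ± 13.1, which overlapped each other. SPARC (91.5 ± 3.72), LOXL2 (88.0 ± 28.7) and AGRN (82.1 ± 12.2) followed and overlapped in turn, then EFEMP1 (40.2 ± 5.56) and LAMC1 (39.997 ± 3.33). LAMA5 (29.5 ± 4.73), HSPG2 (24.5 ± 5.56) and LAMB1 (23.2 ± 1.31) lay in one overlapping run below LAMC1. LAMA3, at 8.61 ± 1.54, was far below LAMB3, and COL4A2 at 18.3 ± 1.32 was above COL4A1 at 8.70 ± 0.462. One start of LAMA3 lies within the gene, and divided by a shorter transcript from it the LAMA3 value would be higher. Which LAMA3 transcripts were present was not tested. In 9 of the 28 genes the exon length exceeded the longest transcript by over 1.5 times, and on the longest transcript COL4A2 and COL4A1 stood at 54.3 and 19.4, LAMA3 at 11.9 and LAMB3 at 328 CPM per kb. That moved COL4A2 from rank 12 to rank 7 of the members, while LAMB3, COL17A1 and TNC remained the first 3.

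Lists of related genes were also drawn up with earlier results of these data known, and their counts are a description. Over all genes tested, 20.3% had an unadjusted p under 0.05 in edgeR, and DESeq2 called 4.66% and limma-voom 1.48% lower. EdgeR called 1.60% lower and 1.10% higher, and in 13.5% of all genes tested the DHA libraries lay wholly below DMSO. Of 22 tested genes for folding, secretion and crosslinking of collagen and laminin, 0 passed in edgeR or limma-voom and DESeq2 called 1 lower. In edgeR 6 had an unadjusted p under 0.05, 6 lay wholly below DMSO, and the median log2 fold change was -0.15. Of 16 tested receptors for basement membrane proteins 1 fell and 0 rose in edgeR (median -0.26), while DESeq2 called 3 lower, 5 had an unadjusted p under 0.05 in edgeR and 5 lay wholly below DMSO. The gene that fell in edgeR was BCAM, the Lutheran antigen and a receptor for laminin alpha5, with 104, 106 and 98.1 CPM in DMSO and 47.2, 51.2 and 44.7 CPM in DHA (log2 fold change -1.11 ± 0.12, adjusted p = 0.00532 in edgeR). Of 26 other matrix genes tested 1 fell and 0 rose in edgeR (median -0.64), while DESeq2 called 11 lower. In this list 17 had an unadjusted p under 0.05 in edgeR and 16 lay wholly below DMSO. For the 28 members the corresponding values were a median of -0.61, 16 called lower by DESeq2, 21 and 21. The gene that fell in edgeR was THBS1 (thrombospondin-1), with 355, 639 and 709 CPM in DMSO and 186, 174 and 243 CPM in DHA (log2 fold change -1.50 ± 0.25, adjusted p = 0.0193 in edgeR), where DMSO 1 was the lowest DMSO library.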

How the data were processed

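The deposited table held whole-number read counts per gene for 6 libraries, not normalized by the authors. Per the submitters' processing notes, fastp, HISAT2, HTSeq, R 3.2.0 and the build GRCh38 were used. No label gives their settings, the annotation release or the use of strand, so overlapping and antisense genes are uncertain. Groups came from the treatment labels, and 0 per-sample columns were left unused. Genes passed edgeR's filterByExpr (minimum count 10) and were fitted with edgeR 4.0.16 (TMM scaling, quasi-likelihood F test, two-sided, treatment as factor) in R 4.3.3, with Benjamini-Hochberg adjustment over 14649 genes. SE was taken as the log2 fold change over the root of its F statistic. DESeq2 1.42.0, limma-voom (limma 3.58.1), other scalings and filters, a replicate block and each library left out were alternatives. The fit was tested on simulated data with a common spread for all genes. That does not cover a library that stands apart, as DMSO 1 did here. Members and lists were chosen with earlier results of these data known. All 34 members are named, and of each further list up to 2 called genes per direction whose mean reached 1 CPM. Gene positions are from RefSeq (GRCh38.p14) by gene identifier, lengths from GENCODE 29.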

Additional observations from a re-analysis of the deposited data

How the results depend on the processing

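The count of all genes past the threshold, 395, became 649 with no filter, 251 at a mean of at least 5 CPM, 1135 in the DESeq2 Wald test, 1272 with a replicate block, and 16 to 789 with one library left out. Of members past the threshold, 12 became 1 to 13 with one library left out, and other settings gave 10 to 17. The block gave 17 by adding LAMB2, COL18A1, HSPG2, LOXL2 and FBLN1, but no label says that library numbers pair the samples. Deviations of same-numbered libraries from group means correlated at 0.26, 0.12 and -0.04. DMSO 1 and DMSO 2 each correlated best with the DHA library of the same number, while DMSO 3 did so with DHA 2 (0.12). With so few libraries these values do not decide whether the samples were paired. Unscaled library totals lost COL4A1, COL4A5 and NTN4 and gained COL18A1, and a mean of at least 5 CPM lost COL4A5, gained COL18A1 and left MXRA5, ABI3BP, LAMA1, LAMA2 and LAMA4 untested. The laminin-332 over laminin-511 difference was 0.43 with the median of the chains and 0.53 to 0.65 with one library left out. Laminin-332 over collagen IV gave 0.56 to 0.66. Signs that turned belonged to genes near 0, LAMA1 (0.10 in limma-voom, 0.058 with the block, -0.34 to 0.52 with one library left out), LAMA3 (-0.13 to 0.11), LAMB3 (-0.11 to 0.057) and COL17A1 (-0.30 to 0.026). The cause was not tested. Scaling moved the median log2 fold change of all genes to between -0.03 and 0.00. Only 3 libraries a group limit all calls, and intervals from counts would cover counting error only.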

Other observations

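Some members share exon bases with a gene on the opposite strand, and without knowledge of strand use their reads cannot be fully told apart. By GENCODE 29, RTRAF covers 29.96% of the exon bases of NID2, SLC19A1 16.4% of those of COL18A1, LDLRAD2 11.7% of those of HSPG2 and the antisense gene CLMAT3 7.89% of those of SPARC. ADRM1 and LAMA5-AS1 cover 1.71% and 0.83% of LAMA5, DLD 0.86% of LAMB1, and COL4A2-AS1 and COL4A2-AS2 0.42% and 0.07% of COL4A2. On the same strand, where strand use would not separate the reads, ENTPD4 covers 2.1% of the exon bases of LOXL2. The partners with high levels did not pass the threshold. ADRM1, a proteasome gene, averaged 161 ± 15.2 CPM with DMSO and 222 ± 35.8 CPM with DHA (SD, n = 3), with an adjusted p of 0.134 in edgeR, against the fall of LAMA5. DLD, a mitochondrial dehydrogenase gene, stood at 93.1 ± 8.73 and 98.3 ± 12.4 CPM. In the same order, SLC19A1 averaged 25.5 ± 6.87 and 26.3 ± 3.91 CPM and LDLRAD2 6.71 ± 2.24 and 5.69 ± 1.71 CPM. ENTPD4 averaged 95.1 ± 6.82 and 79.0 ± 11.6 CPM (adjusted p = 0.311 in edgeR). RTRAF had 114 ± 6.85 and 146 ± 25.7 CPM while NID2 had 0 to 2 counts per library. CLMAT3 stayed at 0.106 to 0.420 CPM in all libraries, far below SPARC.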
